A study of Homo sapiens with 10 samples.

Results

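The genes described here are SMAD2, SMAD3, SMAD4, SMAD6 and SMAD7 and the receptor genes ACVR1B, ACVR2A, ACVR2B, TGFBR1 and TGFBR2, through which cells respond to activin and TGF-beta. They were taken by gene name from the scanner output of 10 single-color Agilent whole human genome arrays and make up 10 of 28090 named genes, with 18 of 41000 probes and 45 spots per array. The arrays measured mRNA of PC-3 cells, an androgen-independent human prostate cancer cell line, with 2 arrays labelled as biological replicates in each of 5 groups. These were untreated cells at 0 h, cells kept for 24 h with the solvent DMSO, and cells kept for 24 h with 60 µM luteolin (a dietary flavonoid), 60 µM gefitinib (an inhibitor of the epidermal growth factor receptor kinase) or both agents at those concentrations, dissolved in DMSO. All results come from this cell line, and no TGF-beta or activin was added in any group. The file names of the 6 drug-treated arrays carry other treatments than their sample labels. Those of the luteolin-labelled arrays are named for gefitinib, those of the arrays labelled gefitinib for both agents, and those of the arrays labelled with both agents for luteolin. Groups are therefore called by their labels, and statements that hold for every drug-treated group do not depend on which naming is right.

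Activin and TGF-beta bind a type II receptor (ACVR2A, ACVR2B or TGFBR2), which then phosphorylates a type I receptor (ACVR1B or TGFBR1). The type I receptor phosphorylates SMAD2 and SMAD3, and these enter the nucleus with SMAD4 and regulate transcription. SMAD6 and SMAD7 are inhibitory SMADs that are themselves induced by the pathway and dampen it. In prostate epithelium the pathway is known for restraining proliferation and, in advanced tumors, for promoting invasion.

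The 75th percentile of the signal, to which every value below is scaled, lay between 1177 and 1402 on the 4 control arrays, between 1041 and 1173 on those labelled luteolin, and between 539.8 and 865 on the other 4. The share of probes well above background ranged from 63.4% to 70.4% over the arrays. KLK3, which encodes prostate-specific antigen and is known as low or absent in the line, was well above background on 10 arrays, at 1038% to 3517% of the 75th percentile. That is by 1 of its 3 probes, chosen as the brightest among those passing the filter below. The others are not reported here. The epithelial genes KRT8, KRT18, EPCAM and CDH1 were well above background on 10 arrays and KRT5 on 2. Of 5 fibroblast genes, DCN was well above background on 0 arrays, PDGFRA on 7, LUM on 8 and COL1A1 and COL3A1 on 9. The summed relative signal of the 5 was 45.7% to 47.2% at 0 h, 32.6% to 38.8% with DMSO, 25.5% to 47.2% with the luteolin label, 16.1% to 20.9% with the gefitinib label and 31.2% to 34.1% with both. Against DMSO, COL1A1 and PDGFRA were lowered and LUM was raised both with the gefitinib label and with both agents. CDH1 was raised in every drug-treated group (1.29, 1.33 and 1.35 on the log2 scale), and KRT8 (1.07) and KLK3 (1.36) were raised with the gefitinib label. The summed relative signal of KRT8, KRT18, EPCAM, CDH1 and KLK3 was 5900% to 6280% at 0 h, 5410% to 5517% with DMSO, 4818% to 4926% with the luteolin label, 8078% to 8229% with the gefitinib label and 5075% to 5124% with both. The part of these marker genes in the results below was not tested. Probes well above background in 1 group or more, on both of its arrays, were tested. These were 28776 probes of 19718 genes, among them all 18 probes described here and so all 10 genes. The filter can be passed through 1 group alone, which may be one in which a gene is high. ACVR1B probe 2 passed through the 0 h arrays alone, although its mean there was 1.78%, beside 2.83% with both agents. A single limma model of the 10 arrays gave every comparison, p-values carry the Benjamini-Hochberg adjustment over the probes tested, and raised or lowered below means an adjusted p under 0.05 together with a 2-fold change or more. A gene was represented by its probe with the highest mean signal.

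Against DMSO, 2 of the 10 genes were lowered and 0 raised in each drug-treated group. SMAD3 and SMAD6 were lowered with the luteolin label, ACVR2A and SMAD6 with the gefitinib label, and TGFBR2 and SMAD6 with the label of both agents. Among all genes tested, 13.4% were called with the luteolin label (6.17% lowered), 29.9% with the gefitinib label (14.3% lowered) and 19.8% with both (7.69% lowered), so calls among these 10 genes were not far from the share among genes in general. At an adjusted p under 0.05 with no minimum fold, 4, 7 and 2 of the 10 genes passed. The median log2 change of the 10 genes was 0.40, -0.31 and 0.27 in the same order, beside 0.08, 0.22 and 0.16 for all genes tested. Between DMSO and 0 h, by limma, 0 of 10 were called, where 0.0355% of all genes were called, 0 had an unadjusted p under 0.05, and the log2 differences lay between -0.30 (SMAD3) and 0.43 (SMAD6). In bulk RNA, less mRNA per cell cannot be told apart from fewer cells that express the gene.

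**Figure D1:**
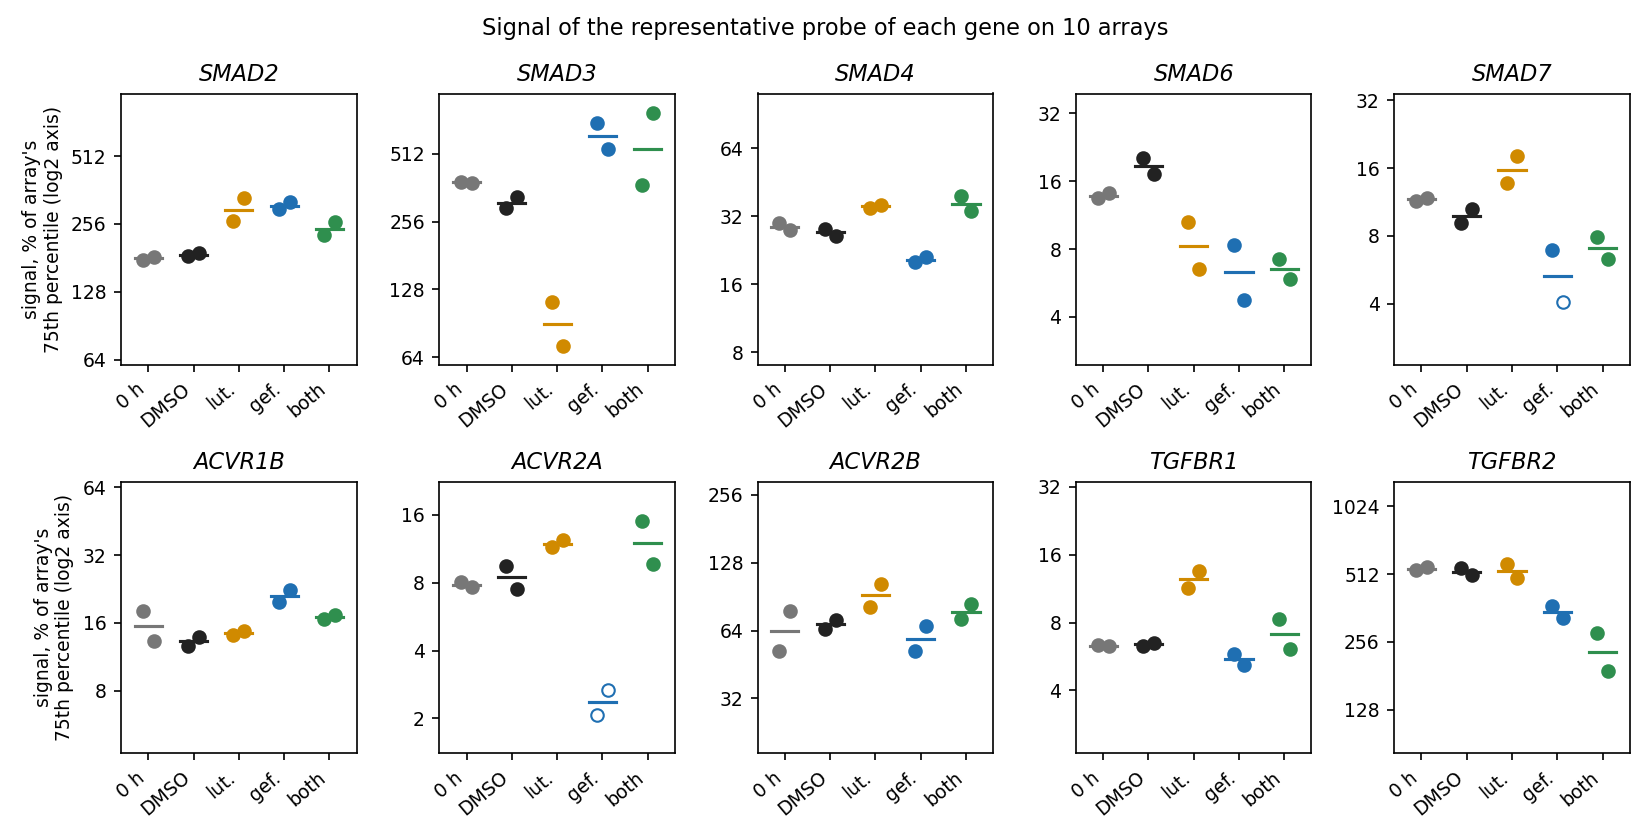
Signal of the representative probe of each gene on every array, as a percent of the array's 75th percentile on a log2 axis, with points for arrays, lines for the geometric mean of a group, and open points for arrays on which the probe was not well above background. SMAD6 lies lower on all 6 drug-treated arrays than on the 4 control arrays, SMAD3 is low only on the arrays labelled luteolin and ACVR2A only on those labelled gefitinib.

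Of the inhibitory SMADs, SMAD6, which mainly restrains signals of bone morphogenetic proteins, was lowered against DMSO in all 3 drug-treated groups, as were 0.801% of all genes tested. These 3 comparisons share the DMSO arrays. The SMAD6 probe (NM_005585, chromosome 15 of hg18, plus strand, from 64795864 to 64860421, so that it crosses an intron) read 13.5% and 14.1% of the 75th percentile at 0 h and 20.2% and 17.2% with DMSO. It read 10.5% and 6.52% with the luteolin label, 8.36% and 4.76% with the gefitinib label, and 7.23% and 5.88% with both. All 6 drug-treated arrays lay below all 4 control arrays. Against DMSO, SMAD6 changed on the log2 scale by -1.17 with the luteolin label (standard error 0.31, adjusted p = 0.026 from limma), -1.56 (adjusted p = 0.00424) with the gefitinib label and -1.52 (adjusted p = 0.00751) with both. Because SMAD6 was somewhat higher with DMSO than at 0 h, its changes against 0 h were smaller, at -0.74 (adjusted p = 0.107), -1.13 (adjusted p = 0.0154) and -1.08 (adjusted p = 0.0248 from limma). The fall with the luteolin label was not called without DMSO replicate 1 (-1.06, adjusted p = 0.14), DMSO replicate 2 (-1.29, adjusted p = 0.0859) or luteolin replicate 2 (-0.83, adjusted p = 0.174 from limma), and with both agents it was not called without DMSO replicate 1 (-1.40, adjusted p = 0.0513). Normexp was also used in place of the scanner's background correction, with its offset of 50. The log2 changes were then -0.70, -0.53 and -0.64, below the 2-fold minimum, with adjusted p of 0.00768, 0.0139 and 0.00701 from limma. The offset by itself shrinks falls of dim probes. It weighs more where the 75th percentile is lower, at 539.8 to 865 with the gefitinib label and with both, beside 1283 to 1350 with DMSO. Against 0 h, the falls with the gefitinib label and with both agents were not called without either 0 h array (adjusted p of 0.0545 to 0.0998) or without the second array of the drug-treated group (-0.73 and -0.93, adjusted p = 0.0854 and 0.118 from limma).

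SMAD7, which blocks the type I receptors of TGF-beta and activin and recruits ubiquitin ligases to them, was not called against DMSO in any group. Its probe (NM_005904, chromosome 18 of hg18, minus strand, 44700780 to 44700839) read 11.5% and 11.8% at 0 h, 9.10% and 10.5% with DMSO, 13.8% and 18.0% with the luteolin label, 6.92% and 4.07% with the gefitinib label and 7.93% and 6.29% with both, where the value of 4.07% was not well above background. The luteolin-labelled arrays were the highest and the other drug-treated arrays the lowest. The log2 change against DMSO was 0.69 (95% confidence interval 0.08 to 1.30, adjusted p = 0.0957), -0.88 (adjusted p = 0.024, below the 2-fold minimum) and -0.47 (adjusted p = 0.189 from limma). After normexp correction the last 2 were -0.01 and 0.07. Its offset of 50 raises dim probes more on those arrays than with DMSO. That alternative therefore cannot decide the direction of the last 2 changes, and none is given. Between drug-treated groups, SMAD7 was higher with the luteolin label than with the gefitinib label by 1.57 (adjusted p = 0.00159) and lower with both agents than with the luteolin label, the fitted difference being -1.16 (adjusted p = 0.0109 from limma). The second difference was not called without luteolin replicate 2 (-0.96, adjusted p = 0.0748) or luteolin+gefitinib replicate 2 (-0.99, adjusted p = 0.063 from limma).

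The sequences just before the transcription starts of these genes are shown because SMAD6 was lowered in every drug-treated group and SMAD7 was not, and because SMAD proteins are known to bind the letters GTCTAGAC and the shorter CAGAC, read on either strand. Each line gives the 250 bases before the start listed first for the gene in RefSeq (GRCh38.p14), with matches in capitals. SMAD6 is at chr15:66701986-66702235 on the plus strand and SMAD7 at chr18:48950966-48951215 on the minus strand.
SMAD6: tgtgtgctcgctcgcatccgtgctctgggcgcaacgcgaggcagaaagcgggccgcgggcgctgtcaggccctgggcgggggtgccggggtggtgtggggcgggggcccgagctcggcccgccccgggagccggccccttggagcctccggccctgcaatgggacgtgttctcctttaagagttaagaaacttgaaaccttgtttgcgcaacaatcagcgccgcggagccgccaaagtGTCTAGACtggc
SMAD7: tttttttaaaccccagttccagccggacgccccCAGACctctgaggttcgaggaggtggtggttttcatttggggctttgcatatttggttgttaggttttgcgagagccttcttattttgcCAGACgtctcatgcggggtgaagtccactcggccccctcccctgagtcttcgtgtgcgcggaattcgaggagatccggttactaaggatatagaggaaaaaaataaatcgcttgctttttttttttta
The SMAD6 window holds GTCTAGAC, ending 4 bases before the start. Over windows of 250 bases before to 50 after a start, GTCTAGAC, which reads the same on both strands, is in 0.202% of the 35116 windows in the table, and CAGAC, or GTCTG on the other strand, in 45.3%. All 10 genes have windows there, 26 in all, of which 1 (that of SMAD6) holds GTCTAGAC and 11 hold CAGAC. The 250 bases before the first start of SMAD3 hold neither, but its window that runs to 50 bases after that start holds 1 CAGAC. Of the SMAD3 starts listed later, windows 2 and 3 hold 0, window 4 holds 1 and window 5 holds 4. The matches printed do not overlap, and a match describes the letters only. Bases outside these windows were not searched, so a window without a match does not show that the gene lacks such a site.

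SMAD3, a receptor-regulated SMAD that binds DNA directly, had the largest fall of the 10 genes with the luteolin label and no fall with the others. Its 10 spots of probe 1 (NM_005902, chromosome 15 of hg18, plus strand, 65274445 to 65274504) gave means of 385% and 380% of the 75th percentile at 0 h and 294% and 328% with DMSO. They gave 112% and 72.1% with the luteolin label, 698% and 535% with the gefitinib label, and 371% and 778% with both. The luteolin-labelled arrays lay below all others, and those labelled with both agents differed from each other more than any other pair. The log2 change with the luteolin label was -1.79 (95% confidence interval -2.59 to -0.99, adjusted p = 0.00826 from limma), below which 1.98% of all genes tested lay. The second SMAD3 probe (chromosome 15, 65270577 to 65270637) fell by 2.54 (adjusted p = 0.00146), from 304% and 294% with DMSO to 74.0% and 35.8%. With the gefitinib label probe 1 changed by 0.98 (adjusted p = 0.0429, just short of the 2-fold minimum and so not called) and probe 2 by 0.38 (adjusted p = 0.336), and with both agents they changed by 0.79 (adjusted p = 0.0997) and 0.30 (adjusted p = 0.477 from limma). The fall of probe 1 was not called without DMSO replicate 2 (-1.71, adjusted p = 0.0568) or without luteolin replicate 2 (-1.47, adjusted p = 0.0681 from limma).

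SMAD2, the close relative of SMAD3 that shares its receptors, went the other way with the luteolin label. Its probe 1, also with 10 spots (NM_005901, chromosome 18 of hg18, minus strand, 43622029 to 43622088), read 177% and 183% at 0 h, 185% and 189% with DMSO, 263% and 333% with the luteolin label, 298% and 320% with the gefitinib label and 228% and 261% with both. All 6 drug-treated arrays were above the 4 control arrays. The changes stayed below the 2-fold minimum, at 0.66 (adjusted p = 0.0231), 0.72 (adjusted p = 0.00816) and 0.38 (adjusted p = 0.1 from limma) on the log2 scale. Of its other probes, A_24_P202527 gave 0.58, 0.58 and 0.28, whereas the dimmer A_32_P12580 gave 0.29, -0.21 and -0.32 and A_32_P109002 gave 0.28, 0.61 and -0.02, so the probes of SMAD2 disagreed in sign for the groups with gefitinib.

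SMAD4, the partner shared by all receptor-regulated SMADs, stayed within 1.34-fold of DMSO. Its 10-spot probe (NM_005359, chromosome 18 of hg18, plus strand, 46859058 to 46859117) read 29.9% and 27.9% at 0 h, 28.2% and 26.3% with DMSO, 35.0% and 35.8% with the luteolin label, 20.1% and 21.1% with the gefitinib label and 39.2% and 33.8% with both. Replicates were close and the gefitinib-labelled arrays were the lowest. The log2 changes against DMSO were 0.38 (95% confidence interval 0.03 to 0.72, adjusted p = 0.102), -0.40 (-0.75 to -0.06, adjusted p = 0.0505) and 0.42 (0.08 to 0.77, adjusted p = 0.0538 from limma).

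**Figure D2:**
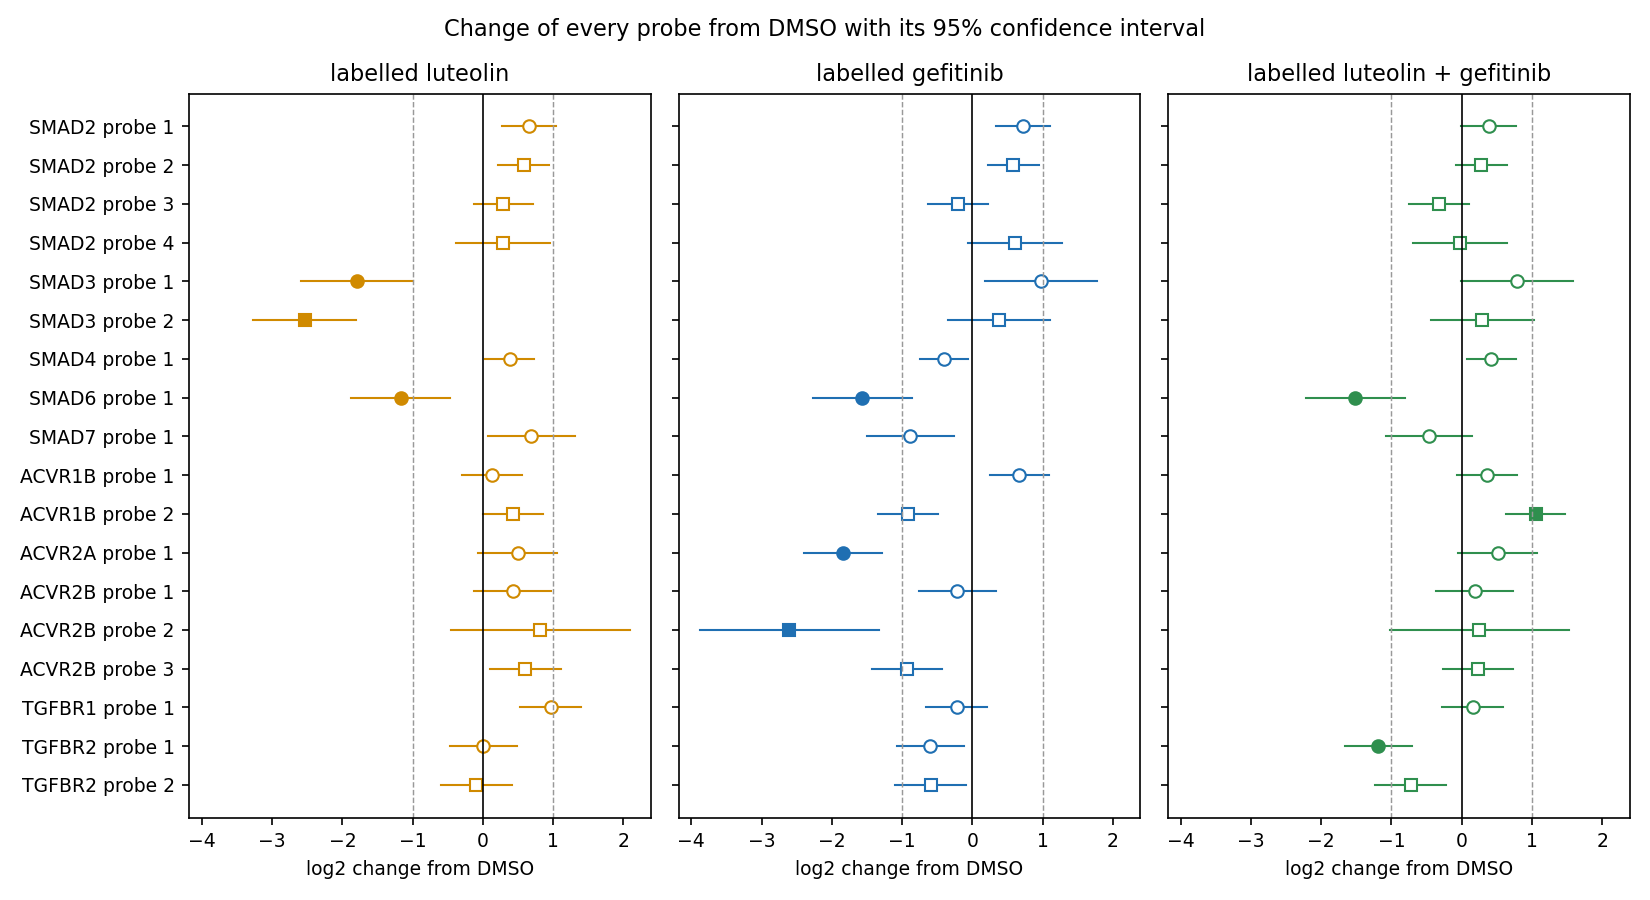
Log2 change from DMSO of all 18 probes, 1 panel per drug-treated group, with bars for the 95% confidence interval of the limma fit, circles for the representative probe of a gene, squares for its other probes, filled symbols for called changes and dashed lines at the 2-fold minimum. Both SMAD3 probes are called lowered with the luteolin label, and SMAD6 is called in every panel.

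Among the type II receptors, ACVR2A was called with the gefitinib label and TGFBR2 with both agents. ACVR2A, a receptor for activin and several related ligands, was measured by a probe (NM_001616, chromosome 2 of hg18, plus strand, 148401393 to 148401452) that read 8.04% and 7.68% at 0 h and 9.52% and 7.53% with DMSO. It read 11.5% and 12.4% with the luteolin label, 15.1% and 9.64% with both agents, and 2.08% and 2.68% with the gefitinib label, neither array being well above background there. The gefitinib-labelled arrays were the lowest of all, without overlap. The fitted log2 change with that label was -1.84 (adjusted p = 0.000897 from limma). ACVR2A was at least 2.81-fold lower than with DMSO, by a limit used below for every fold given as at least. The limit replaces each dim array's value by the lowest signal marked well above background there, where that is higher. Some unmarked probes lay above that signal, as BMPR1B at 3.45% beside 3.32% on gefitinib replicate 1. The limit also leaves out the spread of the brighter arrays, so it is approximate and not a strict bound. The changes with the luteolin label (0.49, adjusted p = 0.177) and with both agents (0.51, adjusted p = 0.123 from limma) were not called. By the same limit, ACVR2A was at least 3.96-fold higher with the luteolin label and at least 4.0-fold higher with both agents than with the gefitinib label (adjusted p = 0.000184 and 0.000213 from limma). After normexp correction the change with the gefitinib label was -0.19 (adjusted p = 0.292 from limma). Because the offset raises dim probes on these arrays, that value does not decide whether ACVR2A fell.

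ACVR2B, the other activin type II receptor, gave probe-dependent values. The brightest of its 3 probes (A_24_P231132, chromosome 3 of hg18, plus strand, 38499784 to 38499843) read 65.2% and 71.6% with DMSO and 51.9% and 66.9% with the gefitinib label, a log2 change of -0.21 (95% confidence interval -0.76 to 0.34, adjusted p = 0.475 from limma). A_32_P134209 (38509311 to 38509370) read 10.3% and 8.57% with DMSO and 3.27% and 0.725% with the gefitinib label, not well above background there. It was lowered at least 3.11-fold (fitted -2.61, adjusted p = 0.00578), and A_23_P109950 (38496226 to 38496285) at least 1.83-fold (fitted -0.93, adjusted p = 0.00847 from limma, below the 2-fold minimum). With the luteolin label the 3 probes changed by 0.42, 0.82 and 0.60 and with both agents by 0.19, 0.25 and 0.23, none of them called.

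TGFBR2, the type II receptor of TGF-beta, was lowered with both agents. Probe 1 (NM_001024847, chromosome 3 of hg18, plus strand, 30710167 to 30710226) read 532% and 552% at 0 h, 547% and 505% with DMSO and 568% and 491% with the luteolin label. It read 371% and 326% with the gefitinib label and 280% and 190% with both. The last 4 arrays lay below the other 6. The log2 change was 0.01 (95% confidence interval -0.47 to 0.48) with the luteolin label, -0.60 (adjusted p = 0.0393) with the gefitinib label and -1.19 (adjusted p = 0.00439 from limma) with both. Probe 2, which crosses an intron (30690717 to 30704913), gave -0.09, -0.59 and -0.73, the last with an adjusted p of 0.0307 and below the 2-fold minimum. Without luteolin+gefitinib replicate 2 the change of probe 1 with both agents was -0.91 (adjusted p = 0.0143 from limma), again below that minimum, as was the change against 0 h (-0.95, adjusted p = 0.0119) and against the luteolin label (-0.91, adjusted p = 0.0108). Against the luteolin-labelled arrays, TGFBR2 changed by -1.20 with both agents (adjusted p = 0.0035 from limma). Against the gefitinib-labelled arrays it was not called. There probe 1 gave -0.59 (adjusted p = 0.0451, below the 2-fold minimum) and probe 2 gave -0.14 (adjusted p = 0.622 from limma).

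The type I receptors were not called against DMSO by their representative probes. TGFBR1, which pairs with TGFBR2, had a probe (NM_004612, chromosome 9 of hg18, plus strand, 100952018 to 100952077) that read 6.36% and 6.28% at 0 h, 6.29% and 6.50% with DMSO, 11.4% and 13.6% with the luteolin label, 5.78% and 5.20% with the gefitinib label and 8.31% and 6.12% with both. The luteolin-labelled arrays were above all others. That change was 0.96 on the log2 scale (95% confidence interval 0.53 to 1.39, adjusted p = 0.00838), just under the 2-fold minimum, and the others were -0.22 (adjusted p = 0.344) and 0.16 (adjusted p = 0.525 from limma). Those 2 values have no settled sign, since their 95% confidence intervals were -0.65 to 0.21 and -0.27 to 0.59. Quantile normalization gave -0.06 for both agents. Normexp correction gave 0.46 for the gefitinib label, which does not decide the sign because its offset raises dim probes on those arrays. Between the luteolin and gefitinib labels TGFBR1 differed by 1.18 (adjusted p = 0.00114 from limma).
ACVR1B, the activin type I receptor, read 18.1% and 13.3% at 0 h, 12.7% and 13.9% with DMSO, 14.2% and 14.8% with the luteolin label, 19.8% and 22.5% with the gefitinib label and 16.6% and 17.4% with both by probe 1 (NM_004302, chromosome 12 of hg18, plus strand, 50674874 to 50674933). The log2 change was 0.13 (95% confidence interval -0.29 to 0.55), 0.67 (adjusted p = 0.0159) and 0.36 (adjusted p = 0.148 from limma). Probe 2, which crosses an intron (50661236 to 50664094) and rose well above background on 3 arrays only, those of 0 h and 1 with both agents, read between 0.634% and 2.98%. It was called raised with both agents (1.05, adjusted p = 0.00442 from limma), at least 1.57-fold against DMSO, where it was on neither array well above background.

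The drug-treated groups were also compared with each other. Between the luteolin and gefitinib labels, at the same concentration and time, 4 of 10 genes were called, where 36.6% of all genes were called. SMAD3 was lower with the luteolin label (-2.76, adjusted p = 0.0004), and ACVR2A, SMAD7 and TGFBR1 were higher. With both agents against the luteolin label 3 genes were called, where 21.0% of all genes were, with SMAD3 higher by 2.58 (adjusted p = 0.00134) and TGFBR2 and SMAD7 lower. With both agents against the gefitinib label, where 27.0% of all genes were called, 1 gene was, ACVR2A. For the other members the intervals of these differences allow changes, and a difference that was not called does not show that the groups were alike. Against 0 h, the called genes were SMAD3 with the luteolin label (-2.09, adjusted p = 0.0036), SMAD6, SMAD7 (-1.13, adjusted p = 0.00877, dim on 1 of the 2 arrays) and ACVR2A (at least 2.61-fold lower, adjusted p = 0.00116) with the gefitinib label, and SMAD6 and TGFBR2 (-1.23, adjusted p = 0.00377 from limma) with both. These are 1, 3 and 2 of 10 genes, where 16.1%, 29.0% and 19.8% of all genes were called. The comparisons against 0 h share the same 2 arrays, and those against DMSO share the same 2 DMSO arrays.

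The combination departed from the sum of the single agents for 3 of the 10 genes, where 34.2% of all genes tested passed the interaction test at an adjusted p under 0.05. For ACVR2A the combination lay above the sum by 1.86 on the log2 scale (standard error 0.34, adjusted p = 0.00477), and for SMAD3 by 1.6 (standard error 0.49, adjusted p = 0.0369 from limma). SMAD3 probe 2 gave 2.45 (adjusted p = 0.00459 from limma). For SMAD2 the combination lay below the sum, the interaction being -1.0 (standard error 0.24, adjusted p = 0.0136), with -0.88 (adjusted p = 0.0184) by A_24_P202527 and values with adjusted p of 0.122 and 0.258 from limma by the dimmer probes. The call of SMAD3 held in 3 of the 10 fits that left out 1 array (1.07 to 2.14, adjusted p of 0.00699 to 0.118) and was lost without either 0 h array, either DMSO array or the second array of any drug-treated group. That of SMAD2 held in 7 (-1.17 to -0.83, adjusted p of 0.0116 to 0.0573) and was lost without either DMSO array or luteolin replicate 2, and that of ACVR2A held in 10 (1.54 to 2.18, from limma) but was lost after normexp correction (0.43, adjusted p = 0.157). SMAD6 gave 1.22 (adjusted p = 0.0616 from limma), and its level with both agents differed from that with the gefitinib label by 0.05 (95% confidence interval -0.66 to 0.75). The ACVR2A term rests on gefitinib-labelled signals that were not well above background, so its size is not determined.

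**Figure D3:**
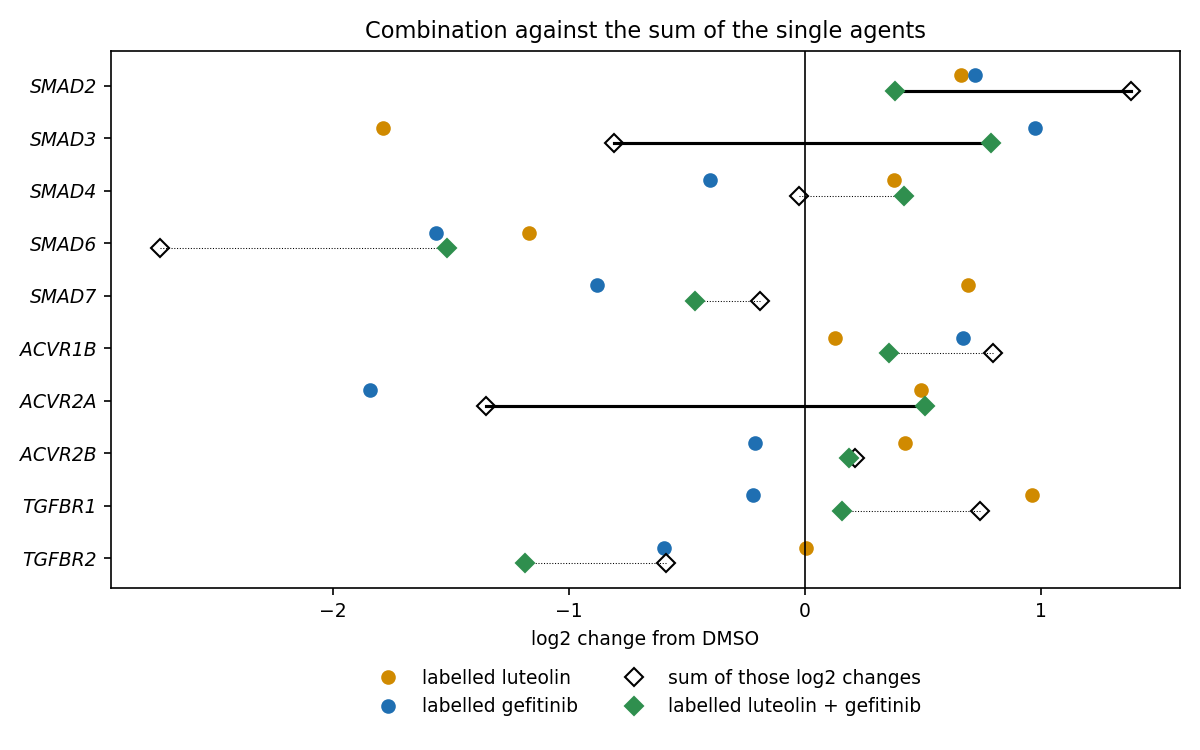
Log2 change from DMSO of each gene's representative probe with the luteolin label, the gefitinib label and both (filled symbols), beside the sum of the changes with the single-agent labels (open diamonds), with a solid line where the difference between sum and combination passed the interaction test. Solid lines join the diamonds of SMAD2, SMAD3 and ACVR2A.

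The arrays were hybridized on 3 slides, and slide is the unit that the file headers name. Slides 2 and 3 each held a DMSO array with drug-treated arrays, so the changes could be read within a slide. SMAD6 differed from the DMSO array of its slide by -0.94 and -1.40 with the luteolin label, -1.27 with the gefitinib label and -1.48 and -1.55 with both, on the log2 scale. SMAD3 differed by -1.39 and -2.19 with the luteolin label. TGFBR2 differed by -0.96 and -1.41 with both agents. ACVR2A with the gefitinib label could be compared only on slide 3, where its signal was lower than with DMSO and not well above background, so no size is given. With slide as a block in the fit, all 6 calls against DMSO held, with adjusted p between 0.00387 and 0.0206 from limma, and the interaction of SMAD3 was 1.48 (adjusted p = 0.0998 from limma).

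**Figure D4:**
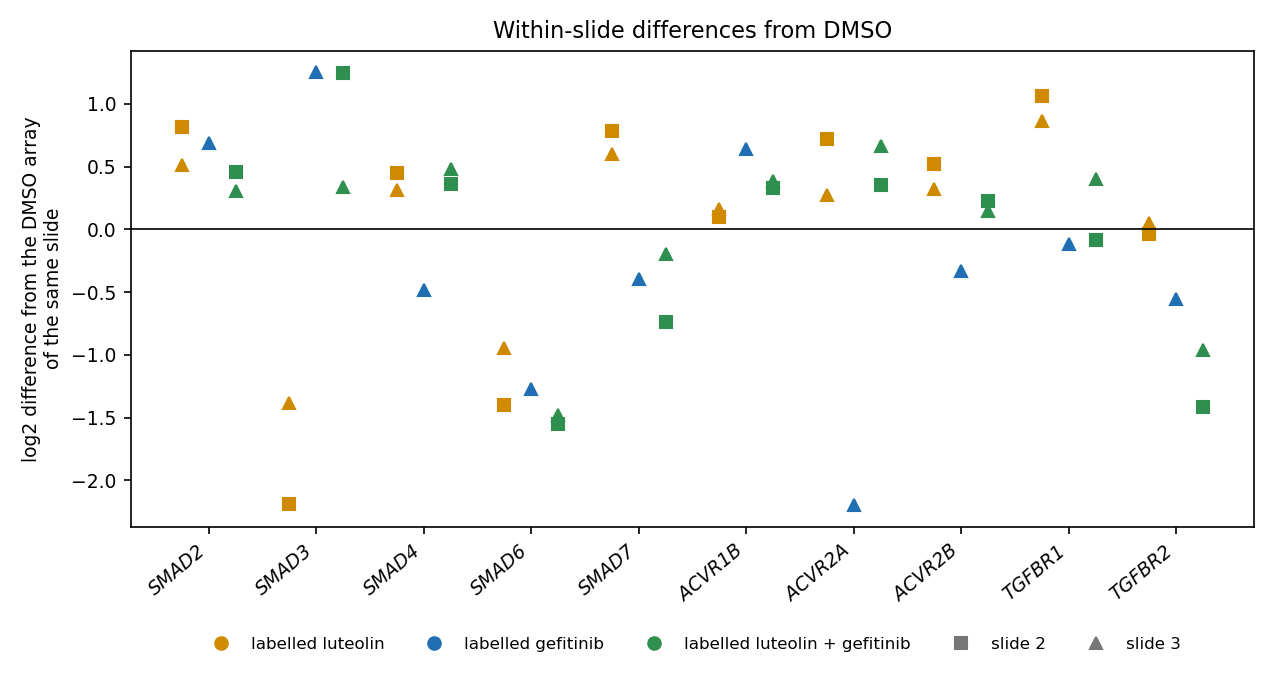
Log2 difference of each drug-treated array from the DMSO array of the same slide for the representative probe of each gene, with color for the label and symbol for the slide. SMAD6 lies between -0.94 and -1.55 in every comparison, whereas SMAD7 lies above 0 with the luteolin label and below 0 with the others.

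If the file names are followed, the 3 pairs of drug-treated arrays exchange names and the changes against DMSO move with them. SMAD3 was then lowered under gefitinib, TGFBR2 under luteolin and ACVR2A under the combination, and SMAD6 under all. The interaction of ACVR2A turned to -2.85 (adjusted p = 0.000527), that of SMAD3 was 1.97 (adjusted p = 0.0122) and that of SMAD2 was -0.32 (adjusted p = 0.314 from limma), while TGFBR1, SMAD4 and SMAD7 were called as well (-1.34, -1.20 and -1.10). Which naming is right was not settled by the values used here.

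Over the 10 arrays, the genes whose pattern was most like that of a called gene, among 16262 or 16263 genes well above background on all arrays, were SLC25A3 and ABCC1 for SMAD3 (Pearson r of 0.994 and 0.991), PRRC2A and KIF7 for SMAD6 (0.945 and 0.933), C8orf76 and ABHD13 for ACVR2A (0.993 and 0.990), and the transcripts THC2537289 and AK093982 for TGFBR2 (0.991 and 0.989). The arrays share treatments and slides, and so many genes were searched that high values are to be found for most genes.

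Other genes of the pathway were read in 4 lists, beside the shares of 13.4%, 29.9% and 19.8% of all genes called with the luteolin label, the gefitinib label and both. Of 9 receptors and coreceptors tested, 1 was raised and 0 lowered with the luteolin label, 1 and 1 with the gefitinib label and 1 and 2 with both, with median log2 changes of 0.22, -0.24 and -0.55 (ACVRL1 was not tested). BAMBI, a receptor-like protein without a kinase that blocks TGF-beta signaling and is itself induced by it, was the gene raised in each. It read 188% and 173% with DMSO, 356% and 502% with the luteolin label, 610% and 291% with the gefitinib label and 814% and 657% with both, with log2 changes of 1.23 (adjusted p = 0.0291), 1.23 (adjusted p = 0.0153) and 2.02 (adjusted p = 0.00356 from limma). TGFBR3, the coreceptor betaglycan that presents TGF-beta to TGFBR2, changed by -0.42, -1.29 (adjusted p = 0.0224) and -1.42 (adjusted p = 0.0213 from limma), so it was lowered in the same groups in which TGFBR2 read lowest. BMPR1B, a type I receptor of bone morphogenetic proteins, was lowered with both agents (-1.58, adjusted p = 0.0205 from limma). It read 7.43% and 4.28% with DMSO and 2.90% and 1.22% with both, where the value of 1.22% was not well above background.

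Of 8 other SMADs and partners, 0 were called with the luteolin label, 1 was raised and 2 lowered with the gefitinib label and 1 was lowered with both, with medians of 0.09, -0.47 and -0.23. With the gefitinib label SMAD1, which carries signals of bone morphogenetic proteins, changed by -1.20 (adjusted p = 0.00551), from 220% and 218% with DMSO to 90.3% and 100.3%. There the coactivator gene EP300 changed by -1.34 (adjusted p = 0.032), from 39.6% and 45.1% with DMSO to 29.3% and 9.49%, and FOXH1, a DNA-binding partner of SMAD2, was raised (1.10, adjusted p = 0.00494 from limma). ZFYVE9, which encodes the anchor protein SARA that presents SMAD2 and SMAD3 to the receptor, was lowered with both agents (-1.35, adjusted p = 0.00231 from limma). It read 94.3% and 99.7% with DMSO and 44.7% and 32.2% with both, but only 60.7% and 56.2% at 0 h. Against 0 h, 0 of these 8 genes were called with both agents.

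Of 12 negative regulators, 1 was raised and 1 lowered with the luteolin label, 2 and 0 with the gefitinib label and 1 and 2 with both, with medians of 0.46, 0.17 and 0.24. PMEPA1, a TGF-beta-induced gene whose product sequesters SMAD2 and SMAD3, changed by 0.60, 2.0 (adjusted p = 0.00479) and 2.84 (adjusted p = 0.00222 from limma), from 92.5% and 82.8% with DMSO to 498% and 793% with both. Its gefitinib-labelled arrays read 558% and 220%. At 0 h it read 184% and 145%, above DMSO, so the rises are larger against DMSO than against 0 h. TGIF1, a corepressor of SMAD2, was raised with the luteolin label (1.45) and the gefitinib label (1.14), with adjusted p of 0.00553 and 0.00722 from limma. Its relative TGIF2, not well above background on any drug-treated array, was at least 2.21-fold lower with the luteolin label and at least 2.09-fold lower with both agents (adjusted p = 0.0107 and 0.0176 from limma). SMURF2, a ubiquitin ligase that SMAD7 brings to the receptors, was lowered with both (-1.14, adjusted p = 0.00369 from limma).

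Of 20 genes tested of 21 known to respond to TGF-beta or activin through SMADs, 3 were raised and 4 lowered with the luteolin label, 7 and 6 with the gefitinib label and 4 and 4 with both, which is 35%, 65% and 40% of them, beside 13.4%, 29.9% and 19.8% of all genes. The medians were 0.07, 0.27 and 0.23, beside 0.08, 0.22 and 0.16 for all genes, and no test of the list was made. This list, like the others, was chosen with earlier results of these data known, so its shares do not test a response of the pathway. With DMSO against 0 h, 0 genes of any list were called by limma. CDKN2B, a cell cycle inhibitor that TGF-beta induces in epithelial cells, was raised in every drug-treated group (3.86, 1.70 and 2.71). CTGF, a matrix-associated factor, was lowered in every group (-2.93, -1.63 and -1.63), from 131% and 88.2% with DMSO to 16.3% and 12.3% with the luteolin label. BHLHE40, a transcriptional repressor, was raised with the gefitinib label (3.07, adjusted p = 0.000108), from 253% and 221% to 2220% and 1789%, and ID1, an inhibitor of differentiation, changed by -2.69 there (adjusted p = 0.000976 from limma), from 3994% and 4183% to 945% and 424%, beside -0.06 and -0.02 in the other groups. ID1 is induced mainly by bone morphogenetic proteins and repressed by TGF-beta in epithelial cells. Called response genes lay on both sides of 0 in every drug-treated group.

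**Figure D5:**
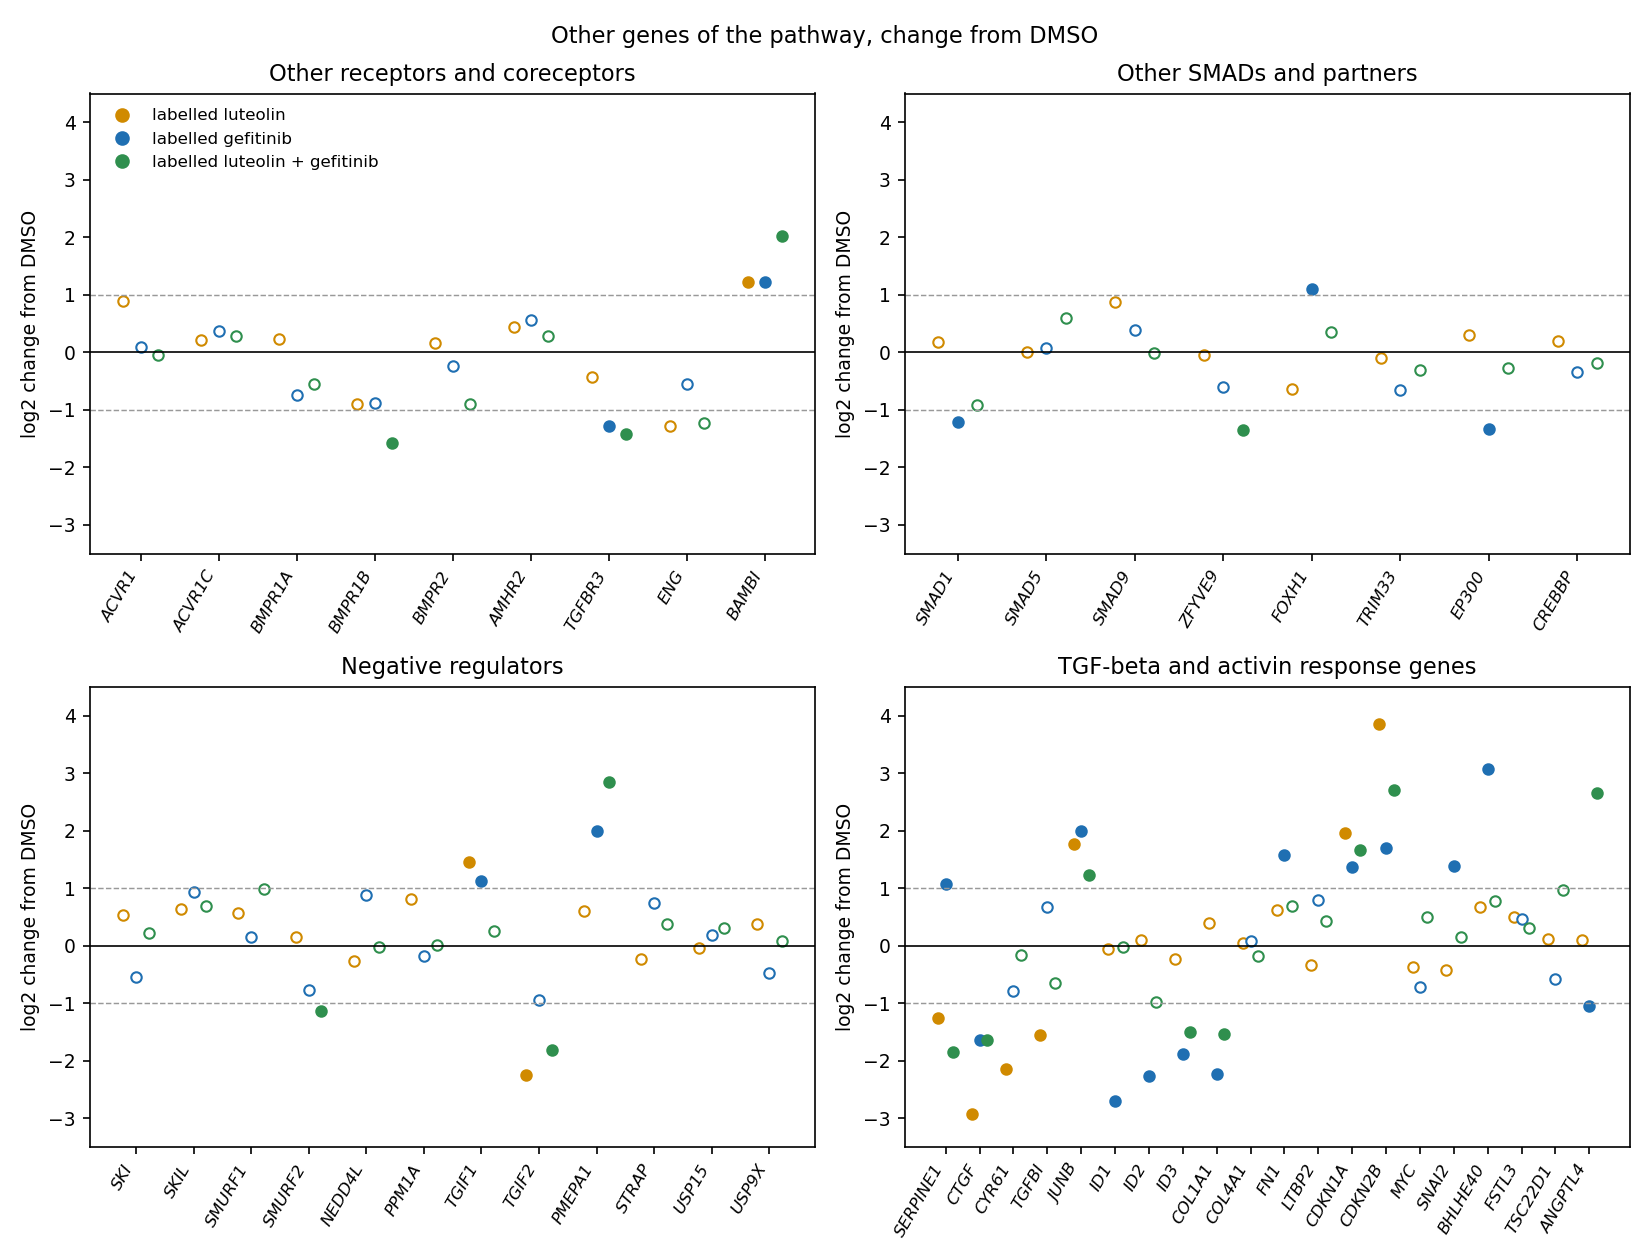
Log2 change from DMSO of the genes tested on the 4 pathway lists, with color for the drug-treated group, filled points for called changes and dashed lines at the 2-fold minimum. BAMBI and CDKN2B are raised in all 3 groups and CTGF is lowered in all 3, with called genes on both sides of 0 among the response genes.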

How the data were processed

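Total RNA of PC-3 cells was labelled with Cy3 and hybridized to single-color Agilent 4x44K arrays. The deposited values are spot intensities, extracted by the authors with Agilent Feature Extraction, whose version is 10.7.3.1 per the file headers. The processed signal, already corrected for background by that software, was used after leaving out control spots and outlier spots. Spots of a probe were averaged, and each array was scaled by subtracting the log2 of its 75th percentile. No spot was removed for saturation. A spot or probe counts as well above background by the scanner software's own mark, for a probe with repeat spots where at least 50% of them were marked. The deposited series table holds the same intensity values, equal to the scanner output for 45015 of 45015 spots per array within 0.0001. Probe positions are those of the files, on hg18.

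Groups were compared with limma 3.58.1 in R 4.3.3 in 1 model of all 10 arrays (5 residual degrees of freedom), with Benjamini-Hochberg adjustment over the 28776 probes tested. The combination was tested as luteolin+gefitinib minus luteolin minus gefitinib plus DMSO, called on the adjusted p alone. The labels call the arrays biological replicates. The test was checked on simulated data, where it missed part of the changes put in, so a gene that was not called may still have changed. With 2 arrays per group, their number limits the precision. Of the probes tested, 22 lack a value on some array and were fitted without it. RefSeq accessions matched 23958 probes and updated their gene names. Tools for the figures were matplotlib 3.10.9 and Python 3.11.15.

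The 10 genes, the pathway lists and the marker lists were chosen with earlier results of these data known. Named were all 10 genes with all their probes, up to 4 called genes with the largest changes of each pathway list, and the 2 genes most correlated with each of the 10 genes called against DMSO. Alternatives covered background correction, normalization, filters on dim probes, minimum fold, several probes of a gene, slide, replicate number, each array left out, the groups in the fit, the series table, file-name treatments and the methods' one-sample test. The number of arrays, not counts, sets the depth here. RNA and protein measurements outside these arrays were not used here. Some marker genes are not reported here.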

Additional observations from a re-analysis of the deposited data

Results flagged for a closer look

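For 3 genes the effect of gefitinib differed with and without luteolin, by the interaction term of limma on the labelled groups, which 34.2% of all genes tested passed. The term was 1.6 on the log2 scale for SMAD3 (adjusted p = 0.0369), with a change of -1.79 for luteolin, 0.98 for gefitinib and 0.79 for both against DMSO. This call was lost with slide as a block (1.48, adjusted p = 0.0998), with replicate number as a block (adjusted p = 0.0504) and in all but 3 of the 10 fits that left out 1 array. The term was -1.0 for SMAD2 (adjusted p = 0.0136), with changes of 0.66, 0.72 and 0.38, and this call held in 7 of those 10 fits. The fitted term was 1.86 for ACVR2A (adjusted p = 0.00477), with changes of 0.49 for luteolin and 0.51 for both. Its fall with gefitinib has only an approximate limit, at least 2.81-fold, because both its arrays were dim. This leaves the size of the term undetermined, and after normexp correction the term was 0.43 (adjusted p = 0.157 from limma). Under the file-name treatments the terms were 1.97, -0.32 and -2.85, so that of SMAD2 was not called and that of ACVR2A had the opposite sign.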

How the results depend on the processing

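Each comparison was repeated with 1 choice changed at a time. The counts of the 10 genes called were 2 for each drug-treated group against DMSO, 1, 3 and 2 for luteolin, gefitinib and both against 0 h, 3 for both against luteolin, 1 for both against gefitinib, 4 for luteolin against gefitinib and 3 for the interaction. They stayed within 1.5 times of these under quantile normalization and a fit of the compared groups alone. The series table holds the same intensities as the scanner output, so the repeat on it was bound to match and is no separate check. Normexp background correction gave 1, 0 and 1 against DMSO, 0 for gefitinib and 1 for both against 0 h, 0 for both against gefitinib and 1 for luteolin against gefitinib, with ACVR2A under gefitinib at -0.19. Without a filter on dim probes 1 gene was called for luteolin against DMSO. Restricted to probes that all 10 arrays marked as well above background, the counts were 1 for gefitinib against DMSO and against 0 h, 0 for both against gefitinib and 2 for luteolin against gefitinib. Without a minimum fold they were 4 and 7 for luteolin and gefitinib against DMSO, 3 and 6 against 0 h, 3 for both against gefitinib and 8 for luteolin against gefitinib. The median over probes gave 1 for both against DMSO, 2 for luteolin against 0 h and 2 for both against gefitinib. With slide as a block 2 genes were called for luteolin against 0 h. The cause of these differences was not tested. Fewer probes enter under the stricter filter, and the normexp offset of 50 by itself shrinks falls of dim probes.

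The methods' one-sample test, run on the same values and replicates, called 1 of 10 genes at its unadjusted threshold for luteolin against gefitinib and 0 in the other comparisons of the drug-treated groups, and 0 in all of them after Benjamini-Hochberg adjustment, where limma called 1 to 4. It has 1 degree of freedom with 2 arrays.

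With the treatments of the file names, 2 genes were called for luteolin and 1 for gefitinib against 0 h, 1 for both against luteolin, 4 for both against gefitinib and 5 for the interaction. Values that changed sign there were SMAD3 for luteolin (0.79 against DMSO, 0.49 against 0 h), ACVR2A for gefitinib (0.49 and 0.60), SMAD7 for gefitinib against 0 h (0.44), TGFBR2 for both against luteolin (0.59), ACVR2A for both against gefitinib (-2.34), SMAD3, SMAD7 and TGFBR1 for luteolin against gefitinib (2.58, -1.16 and -0.81) and the interaction of ACVR2A (-2.85).

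Leaving out 1 array at a time gave 0 to 3 genes for luteolin, 2 to 3 for gefitinib and 1 to 3 for both against DMSO, 1 to 2, 1 to 3 and 0 to 3 against 0 h, 1 to 4 for both against luteolin, 1 for both against gefitinib, 4 for luteolin against gefitinib and 1 to 5 for the interaction. The count for DMSO against 0 h was 0 under all alternatives. Where an array left out leaves a group with 1, that array is assumed to vary like the other groups. SMAD7 under gefitinib against 0 h was -0.75 without gefitinib replicate 2, below the 2-fold minimum.

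The labels number the replicates alike in all groups, but the differences between replicates 1 and 2 correlated between groups only at r of -0.09 to 0.29, so the samples share a number and no pairing is known. With replicate number as a block the counts against DMSO stayed at 2 each and no count changed, but the interaction of SMAD3 was not called (1.60, adjusted p = 0.0504) and that of SMAD6 was (1.22, adjusted p = 0.0254 from limma).

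Quantile normalization moved the median change of all probes by -0.03, -0.15 and -0.15 for luteolin, gefitinib and both against DMSO, and normexp by 0.03, 0.17 and 0.15. Changes below the 2-fold minimum and signals near background are limited by 2 arrays per group.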
